A study of Mus musculus with 12 samples.

Results

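The genes described here are 9 genes of the junctional adhesion molecule (JAM) family and the tight junction, *F11r*, *Jam2*, *Jam3*, *Esam*, *Cldn5*, *Ocln*, *Marveld2*, *Tjp1* and *Cgn*, out of 17765 genes with recovered counts. They were taken by name, with *F11r* chosen by its measured difference in level between mutant and control hearts at E12.5. The E12.5 genotype values of all 9 are therefore given as a description, with no p-value, and how many of them passed the thresholds used for all genes is no evidence about them. Whole embryonic hearts of CD1 mice were profiled by RNA-seq. Controls were *Mesp1Cre*;*Hira+/fl* and mutants were *Mesp1Cre*;*Hira-/fl*, each taken at E11.5 and at E12.5 as 3 libraries, which gives 12 libraries in 4 groups. All hearts carried *Mesp1Cre* and 1 floxed *Hira* allele, so the controls were not free of Cre. The other *Hira* allele was wild type in the controls and null in the mutants. *Mesp1Cre* acts in early cardiac mesoderm, so heart cells from other sources, such as neural crest, kept a floxed allele that was not recombined. HIRA is a histone chaperone that places the H3.3 variant, and the study asked how its loss changes gene expression in the developing heart.

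JAMs are immunoglobulin-type adhesion proteins that sit beside tight junctions, where neighbouring epithelial or endothelial cells seal the space between them. Claudins build the strands of the junction, occludin and tricellulin belong to the same strands, and ZO-1 and cingulin are cytoplasmic scaffolds that tie the strands to actin. In the heart these proteins are best known from the endothelium and endocardium, from the epicardium, which is an epithelium, and from contacts between cardiomyocytes.

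The sequences before the start sites of the 4 genes whose E12.5 mutant and control libraries did not overlap are shown first, because the text returns to these genes throughout. Each is the 200 bases from 250 to 51 bases before a RefSeq start on GRCm38.p6, written 5′ to 3′ on the strand of the gene. Entries were found for 6 of the 9 genes, and *Jam2*, *Jam3* and *Esam* had none. *Ocln* has a second listed start, whose window at chr13:100552549-100552748 lies partly downstream of the first and is not printed. Capitals mark matches, on either strand, to any of 4 motifs. The first was the repeat GAGAGAGA. Another was CAGGTG, an E-box that Snail-type repressors bind. The remaining motifs were the GC box, spelled GGGCGG, and the TATA box, searched as TATAAA. No match overlapped another in these windows.
*F11r*, chr1:171437311-171437510, plus strand: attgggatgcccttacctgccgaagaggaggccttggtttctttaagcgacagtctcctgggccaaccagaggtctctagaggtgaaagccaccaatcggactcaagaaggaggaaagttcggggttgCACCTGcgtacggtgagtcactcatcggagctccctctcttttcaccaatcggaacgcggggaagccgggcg
*Ocln*, chr13:100552769-100552968, minus strand: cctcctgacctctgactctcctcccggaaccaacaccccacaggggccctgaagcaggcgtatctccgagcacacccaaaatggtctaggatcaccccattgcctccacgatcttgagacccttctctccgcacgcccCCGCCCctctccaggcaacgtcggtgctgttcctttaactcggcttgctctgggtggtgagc
*Cgn*, chr3:94786533-94786732, minus strand: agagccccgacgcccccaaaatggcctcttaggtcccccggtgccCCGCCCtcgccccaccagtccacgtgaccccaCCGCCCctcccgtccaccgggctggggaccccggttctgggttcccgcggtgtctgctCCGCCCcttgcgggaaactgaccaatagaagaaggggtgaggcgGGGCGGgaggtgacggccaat
*Cldn5*, chr16:18776597-18776796, plus strand: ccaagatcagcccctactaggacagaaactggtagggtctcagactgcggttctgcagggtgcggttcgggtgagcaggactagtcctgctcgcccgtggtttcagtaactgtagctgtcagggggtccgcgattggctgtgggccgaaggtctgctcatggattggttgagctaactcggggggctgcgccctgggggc
The *F11r* window held 1 CAGGTG match and the window of the second *Ocln* start 2, a motif found in 14.4% of 32851 promoter windows of this length. The *Cgn* window held 4 GGGCGG matches and the printed *Ocln* window 1, against none in that of the second *Ocln* start, and 24.6% of all windows held at least 1. The *Cldn5* window held none of the 4 motifs, and no window of the 6 genes held GAGAGAGA, which 2.6% of all windows held. The GC content was 57% for *F11r*, 61.5% for *Ocln* (68.5% at its second start), 70.5% for *Cgn* and 61.5% for *Cldn5*, against a median of 51.5% over all windows. These matches describe letters in a window and are not binding sites.

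The libraries held between 11994148 and 17483982 reads counted on genes. Levels are given in RPKM, which here are reads scaled by gene length and by library size after TMM scaling (described under processing). *Hira* itself, counted over the whole gene, read 17.5, 18.9 and 15.1 RPKM in the E11.5 controls and 16.5, 12.5 and 14.1 RPKM in the E11.5 mutants. At E12.5 it read 17.2, 19 and 13.5 RPKM in the controls and 17.8, 15.8 and 15.7 RPKM in the mutants. The groups overlapped at both stages, so the whole-gene level did not separate the genotypes, and reads of the floxed exon were not analysed here. Reads on Y-linked genes above a set level marked all 3 E11.5 control libraries as male, and 1 library in every other group. The labels do not say whether a library came from 1 heart or several, so a marked library could hold both sexes. This mark stands for embryo sex below, and genotype at E11.5 and stage in the controls move partly with it. E11.5 mutant 3, the shallowest library, differed more from its replicates than any other library did. Its pairs had a chi-square per degree of freedom of 45.1 to 51.6, and the other 10 replicate pairs reached at most 30.0. In bulk hearts, fewer cells of a type and less RNA per cell cannot be told apart.

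The 9 genes fell into an abundant and a scarce set that was the same at both stages and in both genotypes. *F11r*, *Jam3*, *Tjp1* and *Esam* averaged 34.4, 26.7, 32.3 and 27.7 RPKM over the 12 libraries. *Jam2* averaged 3.73 RPKM, *Cldn5* 1.97, *Marveld2* 1.6, *Cgn* 1.48 and *Ocln* 0.903 RPKM. In every group the least abundant of the first 4 lay above all libraries of *Jam2*. Among the 4 abundant genes the order changed. *F11r* had the highest mean in 3 groups, overlapping the next gene in both E11.5 groups and standing above *Tjp1* in all E12.5 mutant libraries. In the E12.5 controls it ranked below every library of *Tjp1* and overlapped *Esam*. *Ocln* was lowest in all but the E11.5 mutants, where *Cldn5* was lowest. In the mutants of both stages, neighbours in the order of *Cgn*, *Marveld2*, *Ocln* and *Cldn5* overlapped.

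**Figure D1:**
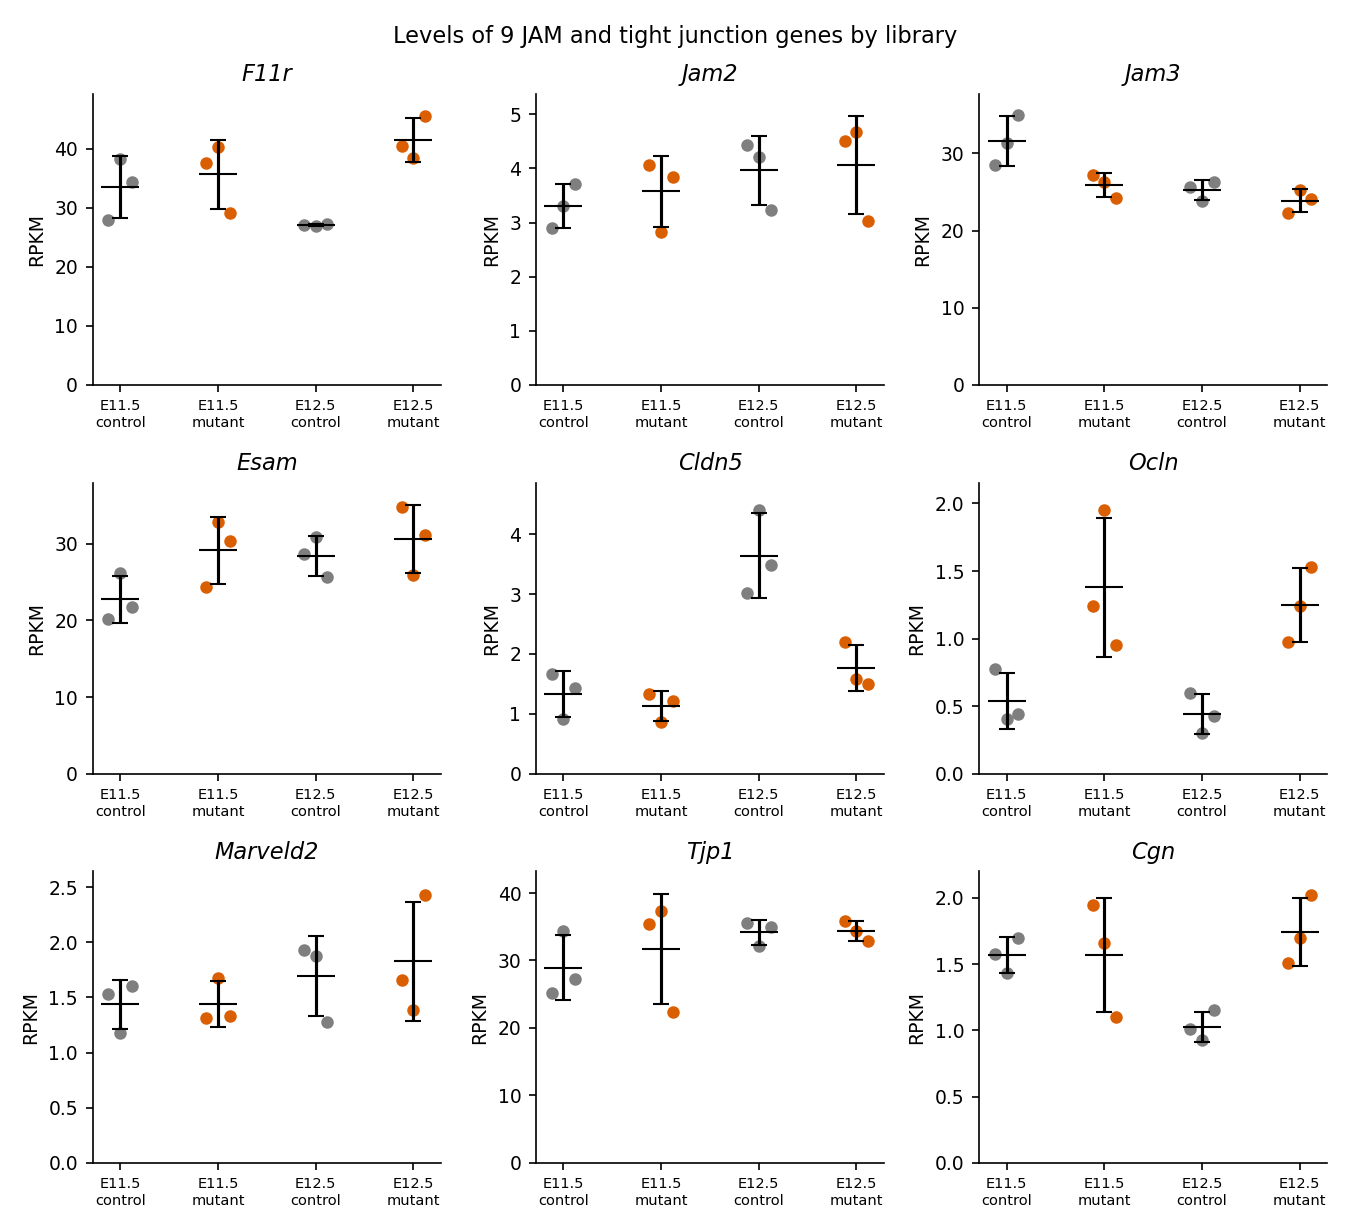
Level of each of the 9 genes in RPKM (vertical axes, starting at 0) in each library; points are libraries, horizontal bars the group mean and error bars the SD (n = 3). *F11r*, *Ocln* and *Cgn* are above and *Cldn5* below all E12.5 controls in the E12.5 mutants, while *Jam2*, *Jam3*, *Esam*, *Tjp1* and *Marveld2* overlap.

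The JAM family came first. *F11r* encodes JAM-A, which joins cells through pairing of its outer domains and recruits the PAR polarity complex. The gene lies on chromosome 1 from 171437535 to 171464603 on the plus strand (GRCm38, the assembly called mm10). At E12.5 it read 27, 26.9 and 27.2 RPKM in the controls and 40.5, 38.4 and 45.6 RPKM in the mutants. The 3 controls were nearly equal, and every mutant stood well above them. The mutant level was 1.53-fold higher (log2 difference 0.62, SE 0.08). At E11.5, *F11r* read 27.9, 38.3 and 34.4 RPKM in the controls and 37.6, 40.2 and 29.1 RPKM in the mutants. These ranges overlapped, and the log2 difference of 0.08 (SE 0.16) did not pass the test (adjusted p = 0.936, edgeR quasi-likelihood test, all genes adjusted together). With embryo sex in the fit it turned to -0.20, and without the 3 libraries highest in *Cdh1*, described further on, to -0.06.

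*Jam2* and *Jam3* encode JAM-B and JAM-C, which pair with each other between cells, and *Esam* encodes a related adhesion protein of endothelium and platelets. None of the 3 separated the genotypes at E12.5. *Jam2* was 3.96 ± 0.644 RPKM in controls and 4.07 ± 0.902 in mutants (SD, n = 3 in each), a log2 difference of 0.04 (SE 0.17). *Jam3* was 25.3 ± 1.33 and 23.9 ± 1.44 RPKM, a log2 difference of -0.08 (SE 0.08). *Esam* was 28.4 ± 2.63 and 30.6 ± 4.5 RPKM, a log2 difference of 0.10 (SE 0.12). Within the family, *F11r*, which was chosen by this contrast, was the 1 gene whose E12.5 libraries did not overlap between genotypes. Over all genes, 26.3% had no overlap, so nothing is read from this. At E11.5, *Jam3* read 28.5, 31.4 and 35 RPKM in the controls and 27.2, 26.3 and 24.2 RPKM in the mutants. All mutants lay below all controls, but the log2 difference of -0.29 (SE 0.12) missed the threshold (adjusted p = 0.466). *Esam* at E11.5 had a log2 difference of 0.36 (SE 0.16, adjusted p = 0.493), with 1 mutant inside the control range, and *Jam2* of 0.11 (SE 0.19, adjusted p = 0.924). An antisense gene, *Gm48796*, overlaps 3793 bases of *Jam3*, and without a stated strand setting its reads and those of *Jam3* cannot be told apart.

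Of the strand proteins, *Ocln* and *Cldn5* had the largest E12.5 log2 differences of the 9, and *Marveld2* one of the smaller ones. *Ocln* encodes occludin, a tight junction membrane protein. At E12.5 it read 0.598, 0.299 and 0.426 RPKM in the controls and 0.976, 1.24 and 1.53 RPKM in the mutants. Those levels rest on 29, 17 and 22 reads in the controls and 46, 67 and 74 reads in the mutants. All mutants were above all controls, 2.84-fold on average (log2 difference 1.51, SE 0.31). At E11.5 the same gene read 0.778, 0.403 and 0.44 RPKM in the controls and 1.24, 1.95 and 0.95 RPKM in the mutants, from 20 to 38 and from 35 to 103 reads. Again no mutant library fell into the control range. The log2 difference was 1.36 (SE 0.38), with an unadjusted p of 0.00642 from edgeR's quasi-likelihood fit, and it did not pass after adjustment over all genes (adjusted p = 0.232). Over the alternative settings at E11.5 it lay between 0.82 and 1.80, with the adjusted p between 0.0718 and 0.715. *Ocln* was thus higher in 6 of 6 mutant libraries than in any control of the same stage, with the E12.5 libraries among the values that chose the genes.

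*Cldn5* encodes claudin-5, the main claudin of endothelial tight junctions. It was the 1 gene of the 9 with all E12.5 mutants below all E12.5 controls. The E12.5 controls read 3.02, 4.41 and 3.49 RPKM, from 65 to 111 reads, and the mutants 2.2, 1.58 and 1.5 RPKM, from 32 to 46 reads. No mutant reached the lowest control. The mutant level was 2.08-fold lower (log2 difference -1.06, SE 0.25). At E11.5 the controls read 1.66, 0.908 and 1.44 RPKM and the mutants 1.33, 0.856 and 1.22 RPKM. These overlapped, with a log2 difference of -0.24 (SE 0.36, adjusted p = 0.912). *Marveld2*, which encodes tricellulin of tricellular contacts, lies next to *Ocln* on chromosome 13, with 43.2 kb between them. Its neighbour's difference was not seen in it. *Marveld2* was 1.7 ± 0.361 RPKM in E12.5 controls and 1.83 ± 0.536 in mutants, a log2 difference of 0.10 (SE 0.24). At E11.5 its log2 difference was 0.01 (SE 0.24, adjusted p = 0.996).

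The scaffolds differed from each other. *Tjp1* encodes ZO-1, which also lies at the junctions of cardiomyocytes and endothelium. It was level at E12.5, with 34.2 ± 1.78 RPKM in controls and 34.4 ± 1.5 in mutants (log2 difference 0.01, SE 0.07). At E11.5 the mutants spread from 22.4 to 37.4 RPKM around controls of 25.2 to 34.4, a log2 difference of 0.13 (SE 0.20, adjusted p = 0.914). *Cgn* encodes cingulin, which binds ZO-1 and is typical of epithelial junctions. At E12.5 it read 1.01, 0.926 and 1.15 RPKM in the controls and 1.51, 1.7 and 2.02 RPKM in the mutants. All mutants lay above all controls, by 1.69-fold (log2 difference 0.76, SE 0.18). At E11.5 the group means were both 1.57 RPKM, and the adjusted p was 0.998.

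Counted together, 4 of the 9 genes passed an adjusted p of 0.05 and a 1.5-fold difference at E12.5, 3 higher (*F11r*, *Ocln*, *Cgn*) and 1 lower (*Cldn5*), and these 4 were also the genes with no overlap of libraries. Over all 12218 genes tested at E12.5, 2.97% passed, 1.6% higher and 1.37% lower, and 26.3% had no overlap. This contrast chose the genes, so the counts, with and without single libraries, describe where the values lie, and nothing is read from those shares. *Ocln* averaged 0.441 RPKM in the E12.5 controls, below the minimum of 0.5 RPKM for testing, and 1.25 RPKM in the mutants. Its high mutant levels thus admitted it to the test, which favoured a rise. The median log2 difference of the 9 was 0.10 and that of all genes 0. *F11r* stood just inside the fold threshold. Leaving out single libraries moved the count. It was 2 without E12.5 control 1 (*F11r* and *Ocln*), 1 without control 2 and 1 without mutant 2 (*F11r* in both), and 0 without mutant 3. Without mutant 3, *F11r* was 0.54 higher on the log2 scale, below the 1.5-fold limit. At E11.5, none of the 9 passed with edgeR or with DESeq2, against 0.115% of 12156 genes with edgeR, and 2 had an unadjusted p under 0.05 (*Jam3* and *Ocln*), as had 10.2% of all genes. At that stage 2 of the 9 had libraries that did not overlap, against 16.3% of all genes, and the median log2 difference was 0.08, against 0.

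**Figure D2:**
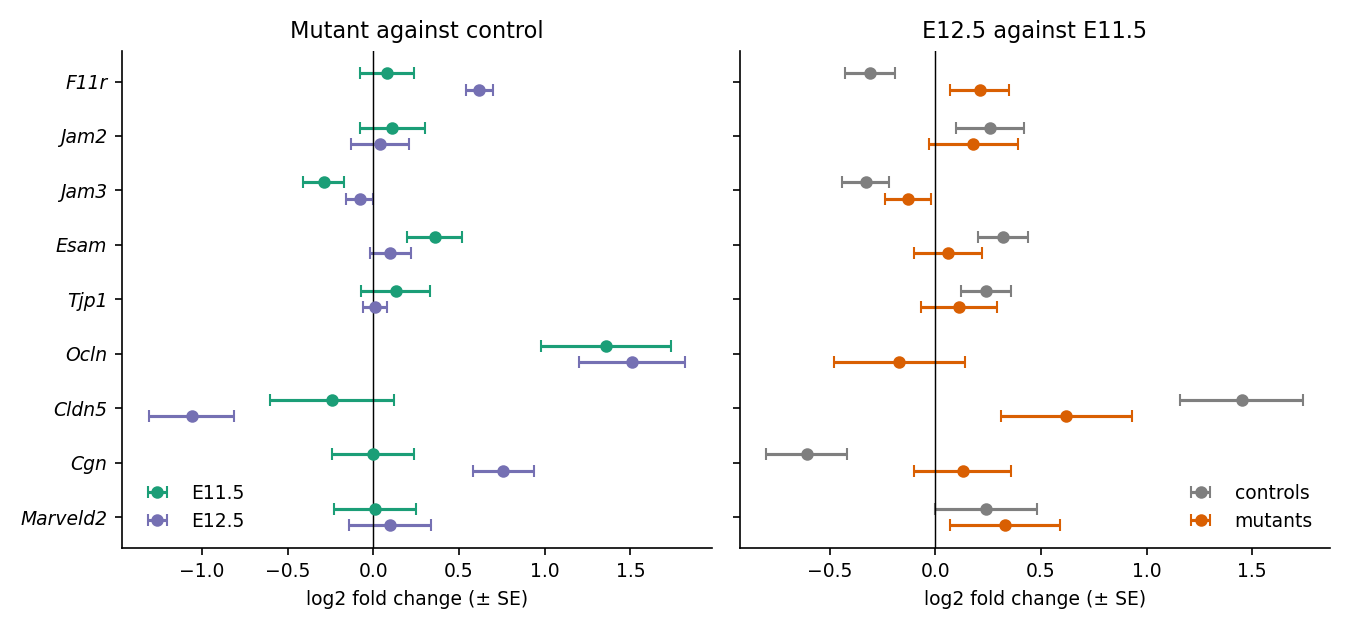
Log2 fold changes of the 9 genes (points) with their SE (bars) from the edgeR fits, for mutant against control at each stage (left) and for E12.5 against E11.5 in each genotype (right); *Ocln* was below the expression minimum in the controls of the right panel. *Ocln* lies to the right at both stages, at 1.36 and 1.51, while *Cldn5* lies at -0.24 at E11.5 and -1.06 at E12.5.

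The change from E11.5 to E12.5 was then examined within each genotype. In the controls, *Cldn5* rose 2.73-fold, from 1.34 ± 0.388 to 3.64 ± 0.703 RPKM (SD, n = 3), with all E12.5 libraries above all E11.5 libraries (log2 difference 1.45, SE 0.29, adjusted p = 0.0241, edgeR). It was the 1 gene called of the 8 tested, against 5.27% of 12213 genes. The call was lost with embryo sex in the fit (adjusted p = 0.343, log2 difference 1.38) and when E11.5 control 3, E12.5 control 1 or E12.5 control 2 was left out. *Cgn* had a log2 difference of -0.61 (SE 0.19, adjusted p = 0.0593), *Jam3* of -0.33 (SE 0.11, adjusted p = 0.0673) and *F11r* of -0.31 (SE 0.12, adjusted p = 0.101), each with all E12.5 controls below all E11.5 controls. *Cgn* passed the threshold without E11.5 control 2 (adjusted p = 0.0357, edgeR) and with DESeq2 (adjusted p = 0.0425). Libraries did not overlap between the stages for 4 of the 8 genes, against 37.4% of all genes. *Esam* had a log2 difference of 0.32 (adjusted p = 0.101), *Jam2* of 0.26, *Tjp1* of 0.24 and *Marveld2* of 0.24.

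In the mutants none of the 9 genes was called between stages, against 0.558% of 12197 genes, and none had an unadjusted p under 0.05. *Cldn5* read 1.14 ± 0.25 RPKM at E11.5 and 1.76 ± 0.384 at E12.5, a log2 difference of 0.62 (SE 0.31, adjusted p = 0.607). It was the 1 gene of the 9 with no overlap between the stages, against 17.4% of all genes. *F11r* had a log2 difference of 0.21 (SE 0.14, adjusted p = 0.695), *Cgn* of 0.13 (SE 0.23, adjusted p = 0.871) and *Ocln* of -0.17 (SE 0.31, adjusted p = 0.878). The difference of the mutant effect between stages was 0.53 on the log2 scale for *F11r* (SE 0.19), 0.75 for *Cgn* (SE 0.29), -0.81 for *Cldn5* (SE 0.42) and 0.15 for *Ocln* (SE 0.51). It contains the E12.5 contrast that chose the genes and is given as values. No gene of 12231 passed adjustment for this difference with edgeR (0% called), 549 had an unadjusted p under 0.05, and DESeq2 called 43. An effect at E12.5 alone was therefore not established for any of the 9 genes. The E12.5 controls enter the genotype comparison at E12.5 and the stage comparison in controls, so low *F11r* and *Cgn* and high *Cldn5* in those 3 libraries act on both.

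Other genes of the junction were taken from lists of claudins, of CAR-type and tricellular proteins, of scaffolds and of the polarity proteins that JAMs bind, 57 genes without the 9 above. Reads were found for 55, and 38 were tested at E12.5. Of these, 1 was called, *Cldn3*, against 2.97% of all genes, and the median log2 difference was -0.04, against 0. *Cldn3* encodes claudin-3, a barrier-forming claudin of epithelia. At E12.5 it read 0.522, 0.445 and 0.538 RPKM in the controls and 3.06, 3.41 and 2.46 RPKM in the mutants. These values rest on 10, 10 and 11 reads in the controls and 57, 73 and 47 reads in the mutants. The control mean of 0.502 RPKM lay at the minimum of 0.5 RPKM for testing. Every mutant was far above every control, 5.89-fold on average (log2 difference 2.56, SE 0.29, adjusted p = 0.00131, edgeR). At E11.5 it read 1.71, 0.356 and 0.945 RPKM in the controls and 2.37, 1.39 and 3.43 RPKM in the mutants. There 1 mutant lay inside the control range, and the log2 difference of 1.24 (SE 0.54) missed the threshold (adjusted p = 0.49). At E11.5 none of the 39 tested was called with edgeR or DESeq2, against 0.115% of all genes with edgeR. An unadjusted p under 0.05 was found for 5 of them, against 10.2% of all genes, and the median log2 difference was -0.06, against 0.

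Of the 3 most abundant genes of each list, 1 was called at E12.5, *Cldn3*, and none at E11.5. Among the scaffolds, *Ybx3* (the ZO-1 partner ZONAB) had a log2 difference of 0.14 (SE 0.12, adjusted p = 0.516) at E12.5, *Sympk* (symplekin) of 0.11 (SE 0.08, adjusted p = 0.458) and *Cgnl1* (paracingulin, the relative of cingulin) of -0.20 (SE 0.10, adjusted p = 0.279). *Cgnl1*, at a mean of 39.2 RPKM over the 12 libraries, was far more abundant than *Cgn* and did not follow it. Among the CAR-type and tricellular proteins, *Cxadr* (the coxsackie and adenovirus receptor of cardiomyocyte contacts) had a log2 difference of -0.18 (SE 0.08, adjusted p = 0.203), *Marveld1* of 0.01 (SE 0.10) and *Lsr* (angulin-1) of 0.42 (SE 0.11, adjusted p = 0.0503). *Lsr* had all mutants above all controls, at 9.45 ± 0.678 against 7.03 ± 0.469 RPKM, and missed the adjusted threshold and the 1.5-fold limit. At E11.5, *Ybx3* had all mutants above all controls, with a log2 difference of 0.44 (SE 0.14, adjusted p = 0.289). Among the polarity partners, the small GTPase genes *Rap1a* and *Rap1b* had log2 differences of -0.03 (SE 0.11) and 0.15 (SE 0.09), and *Amotl2*, an angiomotin relative, of -0.01 (SE 0.08). Of the other claudins, *Cldn12* had a log2 difference of -0.17 (SE 0.10, adjusted p = 0.337) and *Cldn15* of 0.54 (SE 0.20, adjusted p = 0.143). At E11.5, *Cldn15* had the opposite sign, with a log2 difference of -1.0 (SE 0.34, adjusted p = 0.336).

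**Figure D3:**
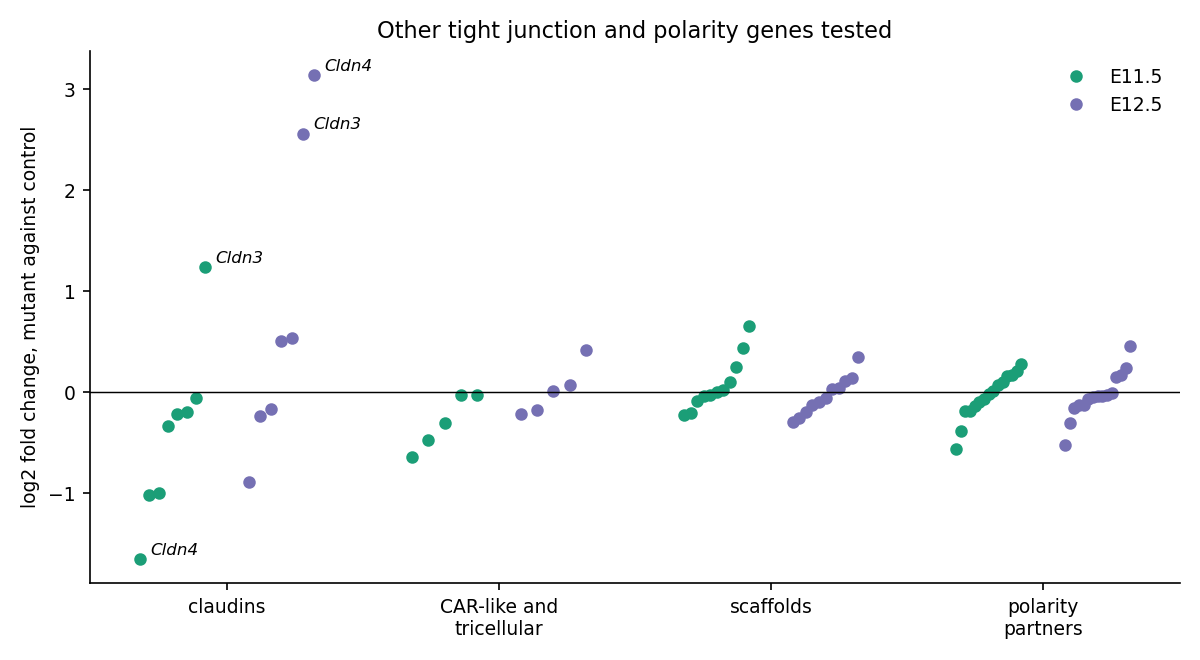
Log2 fold change, mutant against control (vertical axis), of each tested gene of 4 lists that exclude the 9 genes, at E11.5 and E12.5; each point is a gene. The points of the scaffolds, polarity partners and CAR-type proteins lie between -0.64 and 0.66, and *Cldn3* and *Cldn4* are labelled at both stages.

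Epithelial genes were uneven between libraries, and junction genes are set beside them here. The summed level of 12 epithelial and endodermal markers was 13.3 RPKM in E11.5 control 1, 7.96 in E11.5 mutant 1 and 8.63 in E12.5 mutant 3, and between 0.876 and 3.15 RPKM in the other 9 libraries. *Cdh1*, the E-cadherin gene, read 2.53, 0.825 and 2.2 RPKM in these 3 libraries and at most 0.207 in the others. *Epcam* read 4.38, 2.96 and 2.5 RPKM against at most 1.12. Of the defining endodermal markers, *Sftpc* was at 0 in all 3, *Foxa1* and *Shh* were at 0.0408 RPKM or less, *Foxa2* read 0.0307, 0.0611 and 0.0622 RPKM against at most 0.0408 in the other 9, and *Nkx2-1* read 0.0456, 1.13 and 0.3 RPKM. *Cldn4* and *Cldn6* moved with *Cdh1*. *Cldn4* read 3.03, 0.538 and 2.12 RPKM in the 3 libraries and at most 0.374 in the others, and *Cldn6* 3.26, 2.98 and 2.2 against at most 0.225. *F11r* and *Marveld2* had their highest level of the 12 libraries in E12.5 mutant 3, at 45.6 and 2.43 RPKM. In E11.5 control 1 and E11.5 mutant 1, both genes lay inside the range of the other 9 libraries. *Cgn* read 1.58, 1.95 and 2.02 RPKM in the 3 libraries. In E11.5 mutant 1 and E12.5 mutant 3 it was above the other 9, which reached 1.7 RPKM. *Ocln* read 0.778, 1.24 and 1.53 RPKM, inside their range of 0.299 to 1.95, and mutant 3 was the highest E12.5 mutant. At E12.5 the high sum was that of mutant 3. *Spint1* and *Cldn4* were above all controls in mutants 1 and 2 as well, on few reads. *Spint1*, a protease inhibitor gene of epithelia, read 0.476, 0.674 and 1.54 RPKM in the mutants and at most 0.29 in the controls. Its reads were 16, 26 and 53 in the mutants and 10, 2 and 5 in the controls. *Cldn4* read at most 0.145 in the controls against 0.325 or more in the mutants. Its reads were 4, 2 and 3 against 10, 10 and 58. *Cdh1* was above all controls too, at 0.0307 and 0.0534 RPKM against at most 0.028, on 2 and 4 reads. *Epcam* was not, at 0.46 and 0.372 RPKM against 0.799, 0.164 and 0.09 in the controls. *Cldn6* read 0.225 and 0.196 RPKM, against 0.205 in control 3. *Cldn3*, *Ocln* and *Cgn* were higher than all controls in E12.5 mutants 1 and 2 as well as in mutant 3. *Cldn3* was called without mutant 3. Without that library *F11r* was 0.54, *Ocln* 1.34, *Cgn* 0.64 and *Cldn5* -0.96 on the log2 scale, none of them called. At E11.5, 1 control and 1 mutant were affected, and *Ocln* was higher in all 3 mutants than in that control. The part of epithelial tissue in these results was not tested beyond leaving out the libraries.

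**Figure D4:**
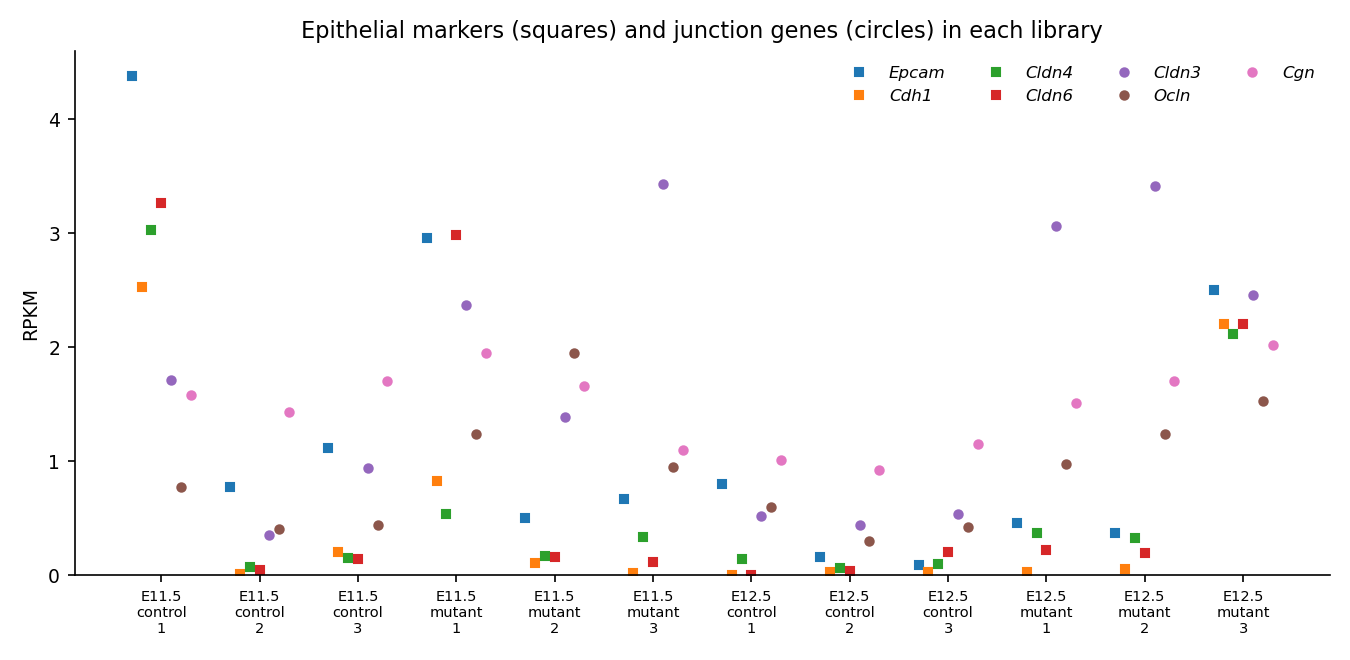
Level in RPKM (vertical axis) of 4 epithelial genes (squares) and of *Cldn3*, *Ocln* and *Cgn* (circles) in each of the 12 libraries. The squares are high in E11.5 control 1, E11.5 mutant 1 and E12.5 mutant 3, whereas *Cldn3* is above 2 RPKM in all 3 E12.5 mutants and below 1 RPKM in all 3 E12.5 controls.

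Markers of the cell types that carry junctions moved as follows at E12.5. Of 14 epicardial and mesothelial markers, 4 were called higher and none lower, against 1.6% and 1.37% of all genes. The summed level was 397 to 410 RPKM in mutants and 251 to 357 in controls. The 4 were *Krt8*, *Krt18* and *Krt19*, keratins of simple epithelia, and *Msln* (mesothelin). *Krt8* rose 2.79-fold, from 9.74 ± 2.15 to 27.1 ± 4 RPKM (adjusted p = 0.00131, edgeR), and *Krt19* 2.08-fold (adjusted p = 0.00131). *Krt18* rose 1.76-fold (adjusted p = 0.016) and *Msln* 2.04-fold (adjusted p = 0.0139). The transcription factors that define the epicardium were not called, with log2 differences of -0.05 for *Wt1*, 0.14 for *Tbx18* and 0.01 for *Tcf21*. At E11.5 none of the 14 was called and 9 had an unadjusted p under 0.05, against 0.115% and 10.2% of all genes. The sum at that stage was 381 to 405 RPKM in mutants and 405 to 565 in controls. Of 12 endothelial and endocardial markers, none was called at E12.5, the stage where *Cldn5* was lower. The unadjusted p from edgeR was under 0.05 for 5 of them, against 21.4% of all genes. *Egfl7* had all mutants above all controls, with a log2 difference of 0.57 (SE 0.10, adjusted p = 0.0123, edgeR), and missed the 1.5-fold limit alone. *Nfatc1* also had all mutants above all controls, at 0.53 (SE 0.16, adjusted p = 0.0804), while *Kdr* (-0.09) and *Eng* (-0.19) had the opposite sign. *Pecam1* had a log2 difference of 0.24 (SE 0.09, adjusted p = 0.178) and *Cdh5* of 0.05 (SE 0.11, adjusted p = 0.844). The endothelial sum was 560 to 679 RPKM in mutants and 560 to 574 in controls. At E11.5 the endothelial sum was 539 to 721 RPKM in mutants and 485 to 537 in controls. None of the 12 was called then, and 6 had an unadjusted p under 0.05, against 10.2% of all genes.

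Of the other marker lists at E12.5, none of 10 cardiomyocyte, 9 megakaryocyte and platelet or 4 liver genes was called by edgeR. An unadjusted p under 0.05 was found for 4, 1 and 3 of them. Over all genes, 2.97% were called and 21.4% had an unadjusted p under 0.05. The liver sum was uneven, with a lowest, median and highest value of 1.72, 7.41 and 25.5 RPKM in the E12.5 mutants (highest in mutant 1) and a range of 2.06 to 3.03 in the controls, with a list median of 1.72 on the log2 scale. *Alb* had a log2 difference of 3.93 (SE 1.32, adjusted p = 0.116) and *Afp* of 2.15 (SE 0.71, adjusted p = 0.113), both with overlapping groups. At E11.5 the liver sum was 0.427 to 28.1 RPKM in mutants and 0.693 to 13.4 in controls, highest in mutant 1 and control 1. In the erythroid list 4 of 6 tested genes were called lower (*Hba-a1*, *Hbb-y*, *Hbb-bh1* and *Slc4a1*, log2 differences of -0.73 to -1.64), against 1.37% of all genes. In the macrophage list 4 of 6 were called lower (*Csf1r*, *Emr1*, *Mrc1* and *Cx3cr1*, -0.73 to -1.31), against the same 1.37%. *Postn* fell among 6 cushion genes, by 0.61 on the log2 scale. *Spint1* rose by 2.52, but of 12 epithelial markers only 2 were tested, *Spint1* and *Epcam*. Their means were 0.158 and 0.351 RPKM in the controls, below the expression minimum, and 0.897 and 1.11 RPKM in the mutants. High mutant levels thus admitted both genes to the test, which favoured a rise, so nothing is read from 1 call of 2. At E11.5, *C1qb* of the macrophage list was called lower, by 2.66 on the log2 scale. No other marker of the lists was called, against 0.115% of all genes. The part of these cell types in the values of the 9 genes was not tested.

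*Cldn5* is a neighbour of the targeted gene. It lies on chromosome 16 from 18776847 to 18778260, and its end is 98.8 kb from the start of *Hira*. The genes between them are *Cdc45*, a replication factor, *Ufd1l*, which acts in protein degradation, *2510002D24Rik* and *Mrpl40*, of the mitochondrial ribosome. None of the 4 was called at either stage. At E12.5, *Cdc45* had a log2 difference of -0.05 (SE 0.08), *Ufd1l* of -0.21 (SE 0.08, adjusted p = 0.159), *2510002D24Rik* of -0.01 (SE 0.13) and *Mrpl40* of 0.02 (SE 0.10). *Ufd1l* was 37.6 ± 1.04 RPKM in controls and 32.5 ± 2.49 in mutants, with all mutants lower, as also at E11.5 (log2 difference -0.25, SE 0.12, adjusted p = 0.546). Of 8 genes tested within 500 kb of *Hira* at E12.5, *Cldn5* was the 1 called, against 2.97% of all genes. That contrast chose the genes, and the call of *Cldn5* was lost in 6 of 15 alternative settings. *Jam2* is on the same chromosome, 65.8 Mb beyond *Hira*. Effects of carrying different *Hira* alleles, with the DNA linked to them, cannot be told apart from those of losing HIRA at this position.

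**Figure D5:**
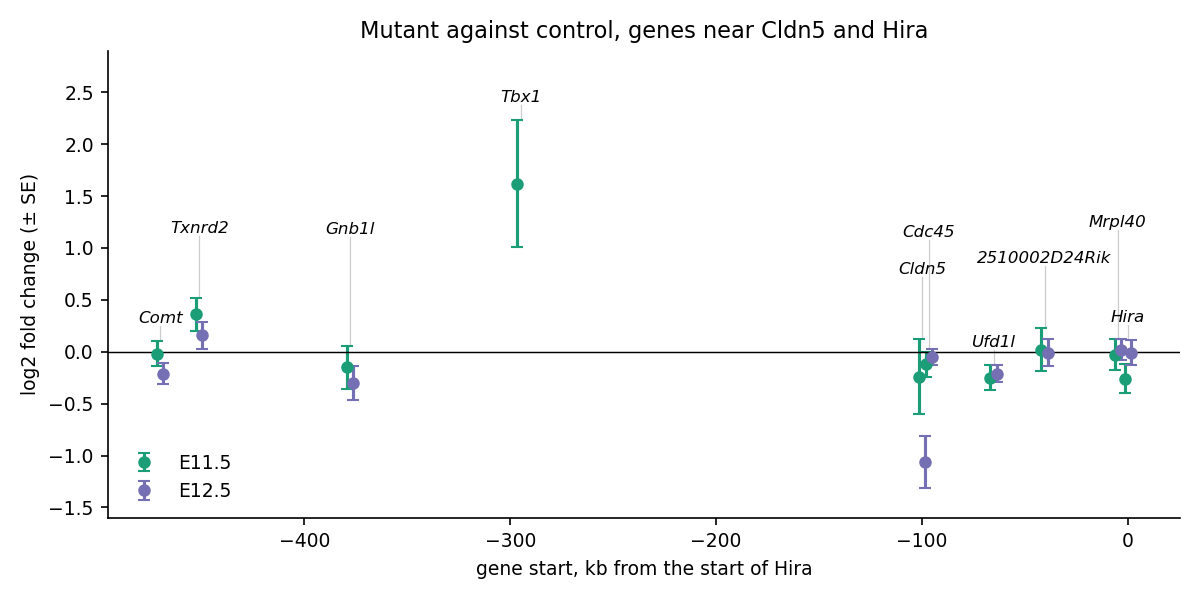
Log2 fold change, mutant against control, with SE (vertical axis) of *Hira* and the genes tested within 500 kb of it, by the distance of the gene start from the *Hira* start in kb (horizontal axis), at E11.5 and E12.5. *Cldn5* at E12.5 lies at -1.06, and the genes between it and *Hira* lie between -0.25 and 0.02; *Tbx1* was above the expression minimum at E11.5 alone.

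The level of each gene over the 12 libraries was last set beside that of *F11r*, as a description on log2(RPKM + 0.5) values of libraries that share groups and scaling. Among the 9 genes, *Cgn* was most like *F11r* (Pearson r = 0.81, n = 12), followed by *Ocln* (0.65) and *Tjp1* (0.41). *Cldn5* ran opposite (-0.63), and *Jam3* (-0.02) and *Jam2* (-0.12) were near 0. Of 12226 genes compared, the 5 most like *F11r* were *Frmd4b* (r = 0.881), *Pard6b* (0.857), *Insig2* (0.854), *Axl* (0.852) and *Rnf17* (0.844). *Pard6b* encodes a PAR6 protein of the polarity complex that JAM-A recruits. It averaged 5.69 ± 0.674 RPKM in E12.5 controls and 7.83 ± 0.239 in mutants. Related polarity genes had E12.5 log2 differences of -0.04 (*Pard3*), 0.17 (*Pard6a*), -0.13 (*Pard6g*), -0.07 (*Prkci*) and 0.24 (*Prkcz*). *Pard3b* went the other way, at -0.52 (SE 0.12, adjusted p = 0.0322, edgeR), with all mutants below all controls, and missed the 1.5-fold limit. The E12.5 values of the 5 genes most like *F11r* carry no test, because they were picked for likeness to *F11r* over the same libraries. *Frmd4b*, a FERM-domain protein gene, was 12 ± 0.955 RPKM in E12.5 controls and 15.8 ± 1.48 in mutants. *Axl*, a receptor tyrosine kinase gene, was 28.3 ± 3.07 and 36.4 ± 3.42 RPKM. *Insig2*, which acts in sterol control, was 12.1 ± 1.23 and 16.7 ± 0.392 RPKM, and *Rnf17*, a gene best known from the germ line, 0.823 ± 0.206 and 1.89 ± 0.14 RPKM.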

How the data were processed

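Per the labels and the study's methods, paired-end reads were aligned with Bowtie2 to mm10 and normalised with DESeq by the authors. The counting program, annotation and strand setting are not given in the sources used here. The authors deposited a signal per gene and library, named RPKM, and for each stage the mean of the raw counts per group (an expected count, since a mean can hold a fraction), beside their own fold changes and p-values, which were not used. The deposited signal was a whole count multiplied by gene length and a library factor, so library factors were fitted from the mean counts, and whole counts were recovered for 17827 genes, all within 1e-06 of a whole number. Rows naming several overlapping genes (62, with 0.227% of counts) were left out.

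Printed RPKM was computed from the recovered counts, the gene lengths and library sizes scaled by TMM. Those sizes and factors came from genes averaging 0.5 RPKM or more over the 12 libraries. The expression minimum used RPKM from all recovered counts, without TMM. Genes averaging 0.5 RPKM or more in the libraries of a fit were tested with edgeR 4.0.16 (quasi-likelihood, TMM scaling, R 4.3.3). A gene was called where its p, adjusted by Benjamini-Hochberg over all genes tested, did not exceed 0.05 and it differed 1.5-fold or more. The difference between stages was tested without a fold limit. limma 3.58.1 and DESeq2 1.42.0 were alternatives. On simulated data for the E12.5 comparison (12150 genes), 88 of 97 genes changed 2-fold and 96 of 98 changed 3-fold were called, with 12 false calls. The 9 genes, the lists and the rule for naming genes were chosen with earlier results of these data known. The genes named were the 9, the called and the 3 most abundant genes of each junction list, and called cell type markers with defining markers beside them. Also named were the 5 genes most like *F11r* and those between *Cldn5* and *Hira*. *Cldn4*, *Cldn6*, *Cdh1*, *Epcam*, the polarity genes set beside *Pard6b* and the uncalled markers were named after their values were seen. Nothing says that libraries of a group came from separate litters, so p-values measure the spread between these libraries. With 3 against 3, an exact two-sided permutation test of a single gene could not go below 0.1, so none is reported.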

Additional observations from a re-analysis of the deposited data

How the results depend on the processing

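Of 723 log2 differences recomputed for the 9 genes, 678 kept their direction and side of the threshold or moved by less than the replicate SD. For the E12.5 genotype values the size of the move was judged, so a lost call could still count among the 678. The E12.5 call was lost in 1 of 15 alternatives for *F11r*, 4 of 14 for *Ocln*, 6 of 15 for *Cldn5* and 8 of 14 for *Cgn*. At E12.5, the count of 4 became 2 with a minimum of 2 RPKM (*Ocln* and *Cgn* were then not tested) and 1 with all 12 libraries in 1 fit, and spanned 0 to 3 when single libraries were left out. The 1 other junction gene became 2 without a filter, 2 with DESeq2, 2 with the replicate block and 0 at 2 RPKM, where *Cldn3* was not tested, and spanned 1 to 2 when single libraries were left out. In controls between stages, the 1 call became 2 with DESeq2 and 0 with sex in the fit, and spanned 0 to 2 when single libraries were left out. Except where the tested genes are named, the cause was not tested. Same-numbered libraries did not pair at E12.5, with correlations of deviations of 0.024, 0.06 and 0.023. At E11.5 these were -0.029, 0.425 and 0.293, which left pairing unsettled there. The replicate block moved the count over all genes from 14 to 73 at E11.5 and from 68 to 36 between stages in mutants. Beside the junction gene count above, it moved no other count by over 1.5 times. Other settings also moved the counts over all genes. At E11.5 the 14 became 73 without a filter, 248 with DESeq2, 27 with limma at a pseudocount of 0.5, 29 with sex, 221 with all 12 libraries and 0 to 15 with single libraries left out, and at E12.5 the 363 became 132 with all 12 libraries and 149 to 368 with single libraries left out. Between stages, the 644 in controls became 19 with sex, 333 with all 12 libraries and 44 to 1403 with single libraries left out, and the 68 in mutants became 118 without a filter, 43 at 2 RPKM, 227 with DESeq2, 119 with all 12 libraries and 1 to 123 with single libraries left out. Without the libraries highest in *Cdh1*, these counts were 0 at E11.5, 263 in controls and 2 in mutants. The difference of the mutant effect between stages passed for 0 genes, 43 with DESeq2 and 10 without E11.5 mutant 3.

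Signs that turned belonged to differences that passed no test. At E11.5 with sex in the fit, *F11r* was -0.20, *Tjp1* -0.36, *Cgn* -0.50 and *Marveld2* -0.10. Without the 3 libraries highest in *Cdh1*, an alternative chosen after seeing the data, *F11r* was -0.06, *Jam2* -0.06, *Tjp1* -0.03 and *Cgn* -0.16. *Cgn* was also 0.00 without a filter and with median-ratio scaling, -0.02 and -0.03 with limma at pseudocounts of 0.5 and 0.1, and -0.02 with the replicate block. Leaving out single libraries at E11.5 gave -0.03 to 0.21 for *F11r*, 0.00 to 0.32 for *Tjp1*, -0.18 to 0.19 for *Cgn* and -0.12 to 0.09 for *Marveld2*. In controls between stages with sex in the fit, *Jam2* was -0.03 and *Marveld2* -0.16. In mutants between stages, *Esam* was -0.06 without the libraries highest in *Cdh1*, and leaving out single libraries gave -0.06 to 0.17 for *Esam*, -0.08 to 0.24 for *Tjp1*, -0.36 to 0.17 for *Ocln* and -0.05 to 0.31 for *Cgn*. *Ocln* rested on 17 to 103 reads per library and *Cldn5* on 20 to 111.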
